A study of Homo sapiens with 28 samples.

Results

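Interferon-stimulated genes were followed as a set of 38 human genes, chosen by symbol, in 28 subcutaneous xenograft tumours of a pair of human clear cell renal carcinoma lines, 786-O and A498. All 38 had a probe set with a single gene symbol, out of 19775 genes with such a probe set, and 37 were bright enough to be tested, out of 13808 genes. The exception was DHX58, a helicase related to the RNA sensors, whose signal lay between 6.13 and 20.7 in every 786-O tumour and reached at most 117 in A498. The study treated tumours with the kinase inhibitors sorafenib or sunitinib, which block the VEGF receptors, until they had outgrown the drug, and set them against tumours taken before treatment.

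All tumours were grown under the skin of female athymic nude/beige mice, which lack a thymus and so mature T cells, injected at 6 to 8 weeks of age. In the sorafenib arm of 786-O, 5 untreated tumours were compared with 5 resistant tumours. The sunitinib arm of 786-O held 5 untreated and 4 resistant tumours, and the sorafenib arm of A498 held 4 untreated and 5 resistant tumours. Sorafenib was given at 80 mg/kg and sunitinib at 53.6 mg/kg on 6 of 7 days a week from a diameter of 12 mm, and resistant tumours were taken near the size limit of 20 mm. Size and treatment therefore cannot be told apart. Whether every tumour grew in a separate mouse is not in the labels, and the p-values therefore cover no more than the spread among the tumours at hand. Each line is a single cultured population, and both are known to have lost VHL.

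Interferons are secreted proteins that cells release when they sense foreign or misplaced nucleic acid. Type I interferons bind IFNAR1 and IFNAR2, the receptor's kinases JAK1 and TYK2 pass the signal on, and the complex ISGF3, whose DNA-binding part is IRF9, binds the interferon-stimulated response element in the promoters of its target genes. The targets include IFIT proteins, which bind viral RNA, and OAS proteins, most of which switch on the RNA-cutting enzyme RNase L. Others are GTPases that trap viral capsids (MX1 and MX2) and the ubiquitin-like modifier ISG15 with its ligase HERC5 and its protease USP18. The factors IRF7 and IRF9 feed back into the pathway. Cultured tumour lines can also express such genes without added interferon.

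The promoters of the members show why they are read as a group. RefSeq windows from 250 bases before to 50 after the start (GRCh38.p14) were at hand for 30 of the 38 genes, without IFIT2, MX2, OAS2, OASL, USP18, IRF7, DHX58 and TRIM22. The core letters of the response element, GAAA followed by any 2 bases and GAAA again, or on the other strand TTTC, any 2 bases and TTTC, stood in 21 of the 30 windows (70.0%), against 3.65% of 27305 windows of all genes. A second match, which may overlap the first, was present in 13 of 30 (43.3%), against 0.271% of all windows. The letters TTCNNNGAA, a second element of interferon-responsive promoters, were in 9 of 30 (30.0%) against 7.88% of all windows. A match is a description of the sequence and not a measured binding site. Stretches are shown for members that the results turn on, in the direction of the gene, with matches in capitals and 15 bases on either side. They end before the start, so a second match of IFITM1 that begins 6 bases before it is not shown.
ISG15 (chr1:1013369-1013414, plus strand): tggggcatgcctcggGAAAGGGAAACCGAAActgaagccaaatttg
IFIT3 (chr10:89327826-89327899, plus strand): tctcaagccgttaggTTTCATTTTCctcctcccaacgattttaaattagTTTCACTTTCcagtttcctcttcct
IFI27 (chr14:94110613-94110665, plus strand): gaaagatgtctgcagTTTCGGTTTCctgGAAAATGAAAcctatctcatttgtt
IFITM1 (chr11:313985-314024, plus strand): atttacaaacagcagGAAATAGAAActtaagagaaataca
ISG20 (chr15:88638932-88638971, plus strand): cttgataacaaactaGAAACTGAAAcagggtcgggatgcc
HERC5 (chr4:88456979-88457069, plus strand): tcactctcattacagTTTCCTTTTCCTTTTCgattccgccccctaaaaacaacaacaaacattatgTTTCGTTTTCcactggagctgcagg
EPSTI1 (chr13:42992267-42992306, minus strand): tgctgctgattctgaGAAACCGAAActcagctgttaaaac
IFI6 (chr1:27672261-27672363, minus strand): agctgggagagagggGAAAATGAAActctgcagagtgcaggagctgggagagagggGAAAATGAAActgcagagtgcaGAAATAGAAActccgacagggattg
BST2 (chr19:17405730-17405775, minus strand): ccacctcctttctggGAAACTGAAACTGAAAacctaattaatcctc
PARP14 (chr3:122680795-122680834, plus strand): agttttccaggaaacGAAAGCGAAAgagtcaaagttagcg
ISG15, HERC5 and BST2 hold overlapping copies, in which the last letters of a match begin the next. IFI6 carries the same 10 letters in 2 copies of a longer repeat.

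The arrays were scaled by the authors to the same trimmed mean, and the median signal of an array lay between 79.7 and 99.4. The number of tumours, 4 or 5 a group, limits the precision. The control probe sets for the 3-prime and 5-prime ends of ACTB, a sign of RNA integrity, differed by 0.06 to 1.03 (log2). The largest differences were those of replicate 5 of the untreated (1.03) and replicate 4 of the resistant (0.67) 786-O tumours of the sorafenib arm. Titles of the tumours of that arm begin with 33 and all others with 35, so the lines were compared through the untreated 786-O tumours of the sunitinib arm. Renal and carcinoma markers such as PAX8, KRT18 and CA12 were above the limit, 8 of 8 with a probe set, and their summed signal was 56641 to 106361 in every group. RNA of mouse cells in a xenograft can bind some human probes, and in bulk tissue a lower share of cells of a type and less RNA per cell cannot be told apart.

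In 786-O tumours resistant to sorafenib, 20 of the 37 genes rose and none fell, where 5.97% of all genes rose and 9.18% fell (limma over all arrays, Benjamini-Hochberg adjusted over 13808 genes, threshold 0.05). Differences are on the scale of log2(signal + 16). They were above 0 in 35 of 37 members against 43.1% of all genes, and their median was 0.60 against -0.05 over all genes. In 11 members every resistant tumour lay above every untreated tumour (5.08% of all genes), and in 1, TRIM22, every resistant tumour lay below (7.40%). The 11 include RSAD2, which was tested only because resistant 786-O tumours exceeded the limit. Its place in that count is therefore a description. TRIM22 (-0.32 ± 0.17, SE) and SAMD9L (-0.26 ± 0.15) were the members with a difference below 0, and neither passed at an unadjusted p under 0.05.

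Of the ISG15 conjugation genes 3 of 4 were higher. ISG15, the ubiquitin-like protein itself, had signals of 2896, 3996, 3295, 3649 and 4454 in the untreated tumours and 8942, 5529, 6809, 10200.5 and 6604 in the resistant tumours. Every resistant tumour was brighter than every untreated tumour, and the difference was 1.04 ± 0.16 (SE; adjusted p = 8.56e-05), a 2.05-fold rise on this scale. HERC5, the ligase that attaches ISG15 to new proteins, stood at 12.0, 81.4, 53.5, 83.3 and 63.0 untreated and at 126, 88.7, 113, 242 and 97.0 resistant. The groups did not overlap, but the lowest untreated value is far from the other 4, and every untreated signal was below the limit of 89.4 used for testing, which the gene passed through A498 as well. Its difference was 1.05 ± 0.31 (adjusted p = 0.0216). USP18, the protease that removes ISG15 and dampens the receptor, was 0.60 ± 0.20 higher (adjusted p = 0.0471), with overlapping groups. HERC6, the neighbour of HERC5 on chromosome 4, differed by 0.18 ± 0.15 and did not pass (adjusted p = 0.469).

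Large differences were found for IFITM1 and ISG20. IFITM1, a membrane protein that blocks the entry of viruses, had signals of 1178, 1589.7, 1347, 1922 and 1469 in untreated and 3081, 2813, 5312, 7441 and 3286 in resistant tumours. The groups were apart, with 2 resistant tumours well above the other 3, and the difference was 1.45 ± 0.25 (adjusted p = 2.18e-04). Its probe set is of a kind that can bind related transcripts. ISG20, an exonuclease that degrades single-stranded RNA, read 219.8, 370.2, 249, 291 and 300.2 untreated and 677, 465, 540.0, 1173 and 729 resistant. All 5 resistant tumours were higher than all 5 untreated ones, by 1.23 ± 0.18 (adjusted p = 3.86e-05). RSAD2 (viperin), which makes a chain-terminating nucleotide, was dim, at 11.2, 54.8, 52.9, 58.5 and 56.3 untreated and 80.3, 117, 112, 217 and 102 resistant. No untreated 786-O tumour and no A498 tumour exceeded the limit of 89.4 in RSAD2, so the gene was tested only because resistant 786-O tumours did, and its values are a description. Its difference was 1.20 ± 0.29 (0.72 to 1.52 over all alternatives), and without RSAD2 the count of members that rose is 19. CMPK2, its neighbour and partner, which supplies the nucleotide, differed by 0.99 ± 0.40 and did not pass (adjusted p = 0.0977).

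In the OAS family, OAS1, OAS2 and OASL rose while OAS3 did not pass. OAS1, OAS2 and OAS3 make the oligoadenylates that switch on RNase L, which the related OASL does not. OAS2 was at 373, 388, 411, 470.4 and 404 in untreated tumours and at 822, 511, 952, 1304 and 699 in resistant tumours. Its groups did not overlap and differed by 0.98 ± 0.17 (adjusted p = 3.02e-04). OAS1, next to OAS3 and then OAS2 on chromosome 12, rose by 0.86 ± 0.15 and OASL by 0.60 ± 0.18. OAS3 lies between those neighbours and differed by 0.52 ± 0.21 (adjusted p = 0.0978). Among the IFIT proteins, which bind the ends of foreign RNA, IFIT3 rose by 0.89 ± 0.16, IFIT2 by 0.70 ± 0.22 and IFIT1 by 0.65 ± 0.19. IFIT5, the neighbour of IFIT1 on chromosome 10, differed by 0.12 ± 0.14 (adjusted p = 0.612).

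Of the RNA sensors 2 of 3 rose, and of the IRF factors 1 of 2. IFIH1 (MDA5, a sensor of long double-stranded RNA) was 0.62 ± 0.16 higher and EIF2AK2 (PKR, the kinase that stops translation on double-stranded RNA) 0.42 ± 0.10 higher. DDX60, a helicase said to aid those sensors, differed by 0.08 ± 0.12. IRF9, the DNA-binding part of ISGF3, rose by 0.43 ± 0.09 (adjusted p = 0.00186), while IRF7, the factor for late interferon genes, differed by 0.00 ± 0.19 with a 95% interval of -0.38 to 0.39. MX2 rose by 0.87 ± 0.20 and IFI27 by 0.54 ± 0.13. XAF1, a factor tied to apoptosis, rose by 0.63 ± 0.20, PARP14, an ADP-ribosyltransferase, by 0.69 ± 0.12 and IFI35 by 0.40 ± 0.12. MX1, IFI6, IFI44L, EPSTI1, PARP9 and PARP12 had differences of 0.29 to 0.72 that missed the threshold, and BST2, IFI44 and SAMD9 of 0.13 to 0.30. Differences of this size are within what the design can miss: in simulated data with known shifts for this comparison, 40% of shifts of 0.5 and 77% of shifts of 1 were called.

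**Figure D1:**
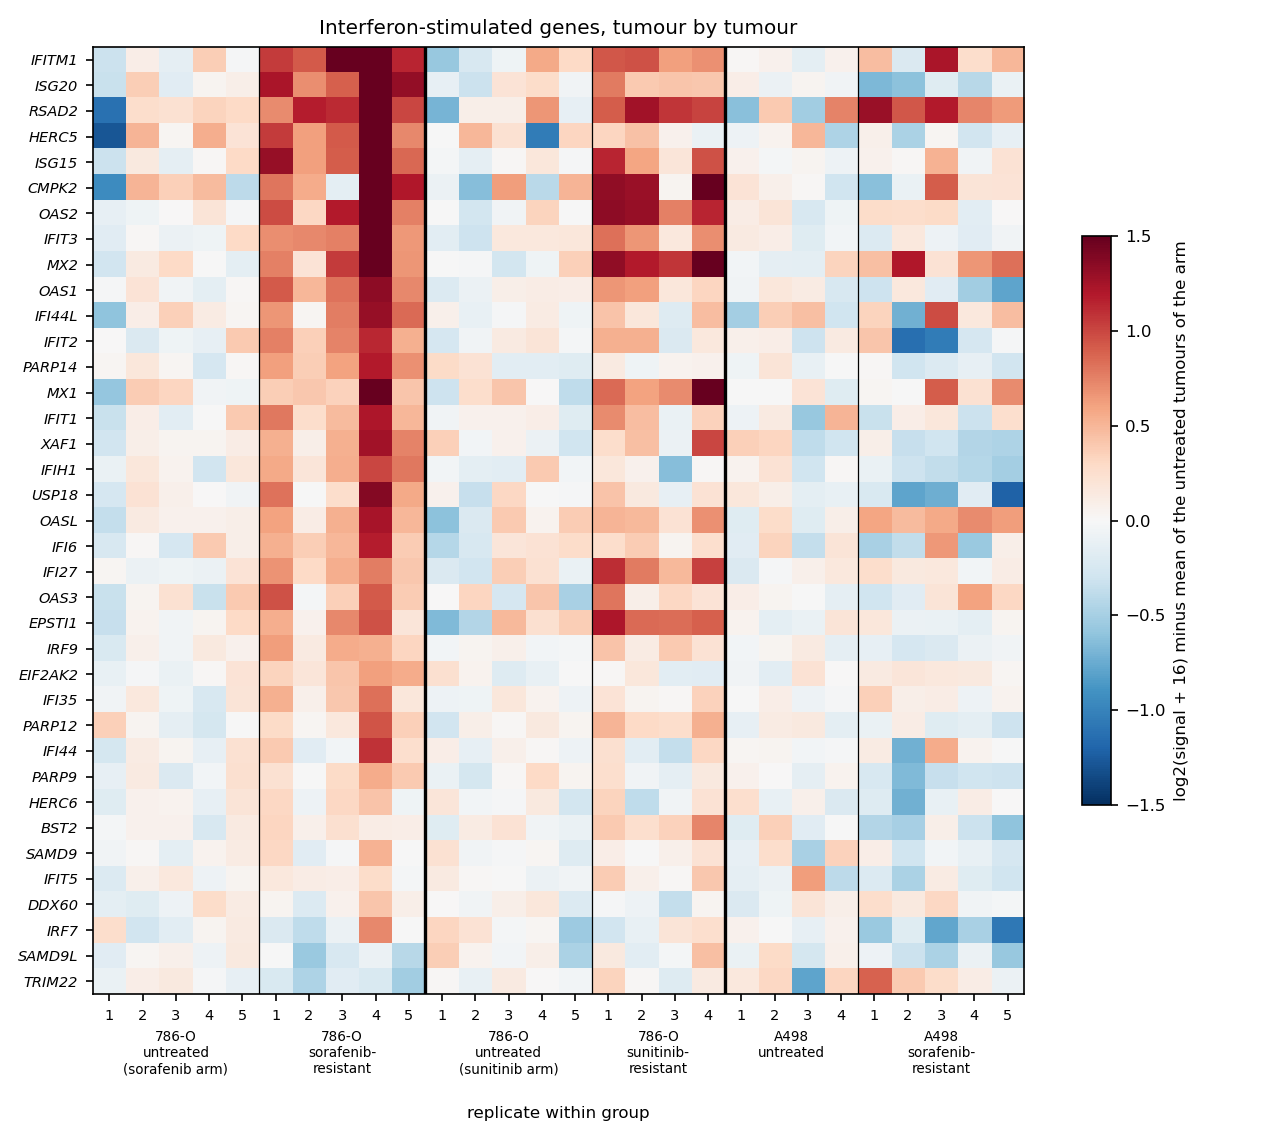
Each cell is the log2(signal + 16) of a gene in a tumour minus the mean of the untreated tumours of its arm (colour scale from -1.5 to 1.5; values beyond are drawn at the ends), for the 37 tested genes in rows and the 28 tumours in columns. Replicate 4 of the 786-O sorafenib-resistant tumours is the reddest column, replicate 2 of that group is paler, and the A498 columns hold both colours.

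The 5 sorafenib-resistant 786-O tumours did not carry the rise equally. The median over the 37 members of the difference from the untreated mean was 0.60, 0.13, 0.50, 1.13 and 0.49 in replicates 1 to 5, and the same median over all genes was -0.06 to -0.03. Replicate 4 was the highest of the 5 in 32 of 37 members (23.4% of all genes), and replicate 2 the lowest in 31 of 37 (19.7%). Replicate 4 exceeded all untreated tumours in 34 members, replicate 1 in 30, replicate 3 in 26, replicate 5 in 25 and replicate 2 in 13, where the share of all genes was between 18.1% and 23.5%. Among the untreated tumours, replicate 1 was the lowest in 23 of 37 members (19.6% of all genes). The median SD of a member among the sorafenib-resistant tumours was 0.36 against 0.22 for all genes, whereas in the other 5 groups it was 0.19 to 0.23 against 0.20 to 0.22.

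Without replicate 4 of the resistant tumours, 13 members rose, all among the 20, and the median difference was 0.44. HERC5, IFI35, IFIT1, IFIT2, OASL, USP18 and XAF1 then missed the threshold. IFIT2 and USP18 each missed it in 7 of the 10 cases with 1 tumour left out, and IFIT1 and XAF1 in 4. Without replicate 2 instead, 25 rose, the same 20 with EPSTI1, IFI44L, OAS3, PARP9 and PARP12. Leaving out untreated replicate 1 together with resistant replicate 4, a choice made after seeing the data, left 11 of the 20 and a median of 0.35. Replicate 4 is also the resistant tumour with the largest ACTB difference, and the part of that in the result was not tested further. Without it and untreated replicate 5, the arrays of highest ACTB difference, 13 members rose.

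**Figure D2:**
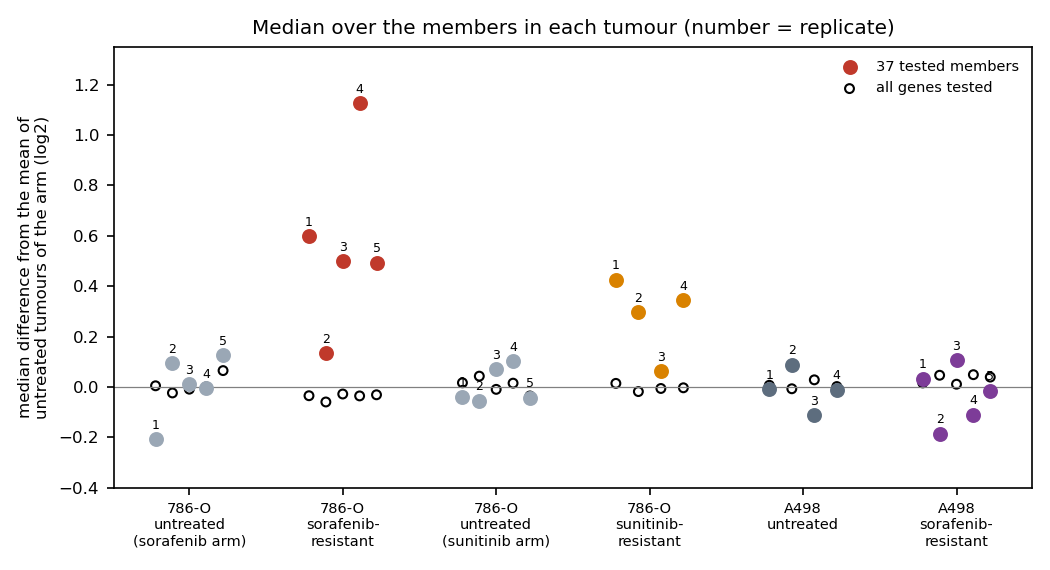
Points are single tumours and show the median over the 37 tested members of log2(signal + 16) minus the mean of the untreated tumours of the same arm; open rings give the same median over all 13808 genes. The 5 sorafenib-resistant 786-O tumours spread from 0.13 to 1.13 and the 4 sunitinib-resistant ones from 0.06 to 0.43, while the A498 resistant tumours lie between -0.19 and 0.11.

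In 786-O tumours resistant to sunitinib, 7 of the 37 genes rose and none fell, against 2.22% and 2.84% of all genes (5.06% in either direction). None fell at an unadjusted p under 0.05 either. The difference was above 0 in 34 members (47.9% of all genes), with a median of 0.29 against -0.01 over all genes. In 13 members all 4 resistant tumours lay above all 5 untreated tumours (4.12% of all genes), and in none did they all lie below (4.34%). RSAD2, tested only through resistant 786-O tumours, is among the 13 as a description. MX2, a GTPase of the nuclear envelope that restricts retroviruses, had signals of 122, 120.3, 98.4, 116 and 161 untreated and 331, 299.9, 273 and 383 resistant. The groups of this arm were far apart, and the difference was 1.28 ± 0.22 (limma, adjusted p = 0.00155). OAS2 stood at 243, 198, 233, 312 and 243 untreated and at 639, 623, 421 and 554 resistant, with no overlap and a difference of 1.13 ± 0.18 (adjusted p = 0.00108).

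IFI27, a mitochondrial and nuclear-membrane protein often used as a marker of interferon response, was among the brightest members. Its signals were 5619, 5361, 8495, 7707 and 6126 in untreated and 14141, 11222, 9209.6 and 13393 in sunitinib-resistant tumours. All resistant tumours were higher, by 0.85 ± 0.14 (adjusted p = 0.00108). EPSTI1, first described as a stromal-response gene of epithelial tumours, was at 249, 292, 572, 478 and 527 untreated and 958, 739.8, 731 and 763 resistant, a rise of 0.95 ± 0.20 (adjusted p = 0.00694). ISG15 read 2805, 2589, 2878, 3218 and 2816 untreated and 6300.4, 4312, 3249 and 5542 resistant. Its lowest resistant tumour, replicate 3, was barely above the highest untreated tumour, and the difference was 0.72 ± 0.17 (adjusted p = 0.0169). RSAD2 read 17.1, 41.1, 41.1, 69.2 and 33.6 untreated, all below the limit, and 84.9, 113, 97.8 and 92.9 resistant. As in the sorafenib arm this is a description, with a difference of 1.06 ± 0.31, and without RSAD2 the count of members that rose is 6. IFIT3 rose by 0.58 ± 0.17 (adjusted p = 0.0446), with overlapping groups.

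Members whose sunitinib groups did not overlap but that missed the threshold were MX1 (0.94 ± 0.28, adjusted p = 0.0551), IFITM1 (0.80 ± 0.26, adjusted p = 0.0835), ISG20 (0.50 ± 0.19), OAS1 (0.44 ± 0.16), BST2 (0.43 ± 0.13, adjusted p = 0.0603), PARP12 (0.40 ± 0.15) and IRF9 (0.29 ± 0.10). BST2, or tetherin, holds budding virus at the cell surface. The sensors stayed near 0, with EIF2AK2 at -0.04 ± 0.10, IFIH1 at -0.10 ± 0.16 and DDX60 at -0.10 ± 0.12. By tumour, the median over the members was 0.43, 0.30, 0.06 and 0.34 in replicates 1 to 4. Replicate 3 was the lowest in 24 of 37 members (25.3% of all genes). It exceeded all untreated tumours in 13 members (21.8% of all genes), against 21 to 26 in the other 3 replicates (16.6% to 21.0%). Without replicate 1, and likewise without replicate 4, 4 of the 7 genes rose: EPSTI1, IFI27, MX2 and OAS2. RSAD2 missed the threshold in 8 and IFIT3 in 7 of the 9 cases with 1 tumour left out. Of simulated shifts of 0.5 in this comparison 29% were called, and of shifts of 1 69%.

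IFIT3, IFI27, ISG15, MX2, OAS2 and RSAD2 rose in both arms of 786-O, EPSTI1 in the sunitinib arm and 14 members in the sorafenib arm, while 16 rose in neither. Without RSAD2, 5 members rose in both. The share of all genes that rose in both arms was not counted. It was 5.97% in the sorafenib arm and 2.22% in the sunitinib arm, each taken alone. The 2 arms share no tumours. Titles of the 2 arms begin with different numbers, so a batch behind those numbers and the drug cannot be told apart. The difference between the arms was itself tested, and no member passed (0.442% of all genes were higher and 0.507% lower under sorafenib). At an unadjusted p under 0.05, 4 members differed, and the share of all genes at that threshold was not counted. All 4 had a larger rise in the sorafenib arm: PARP14 by 0.65 ± 0.18, IFIH1 by 0.72 ± 0.23, EIF2AK2 by 0.45 ± 0.14 and ISG20 by 0.73 ± 0.27 (limma, lowest adjusted p = 0.0807). For OAS2 the arms differed by -0.16, with a 95% interval of -0.68 to 0.36, and for ISG15 by 0.32, with an interval of -0.17 to 0.81. The median of that difference over the members was 0.18 against -0.03 over all genes, and it was above 0 in 25 of 37 (45.4% of all genes).

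**Figure D3:**
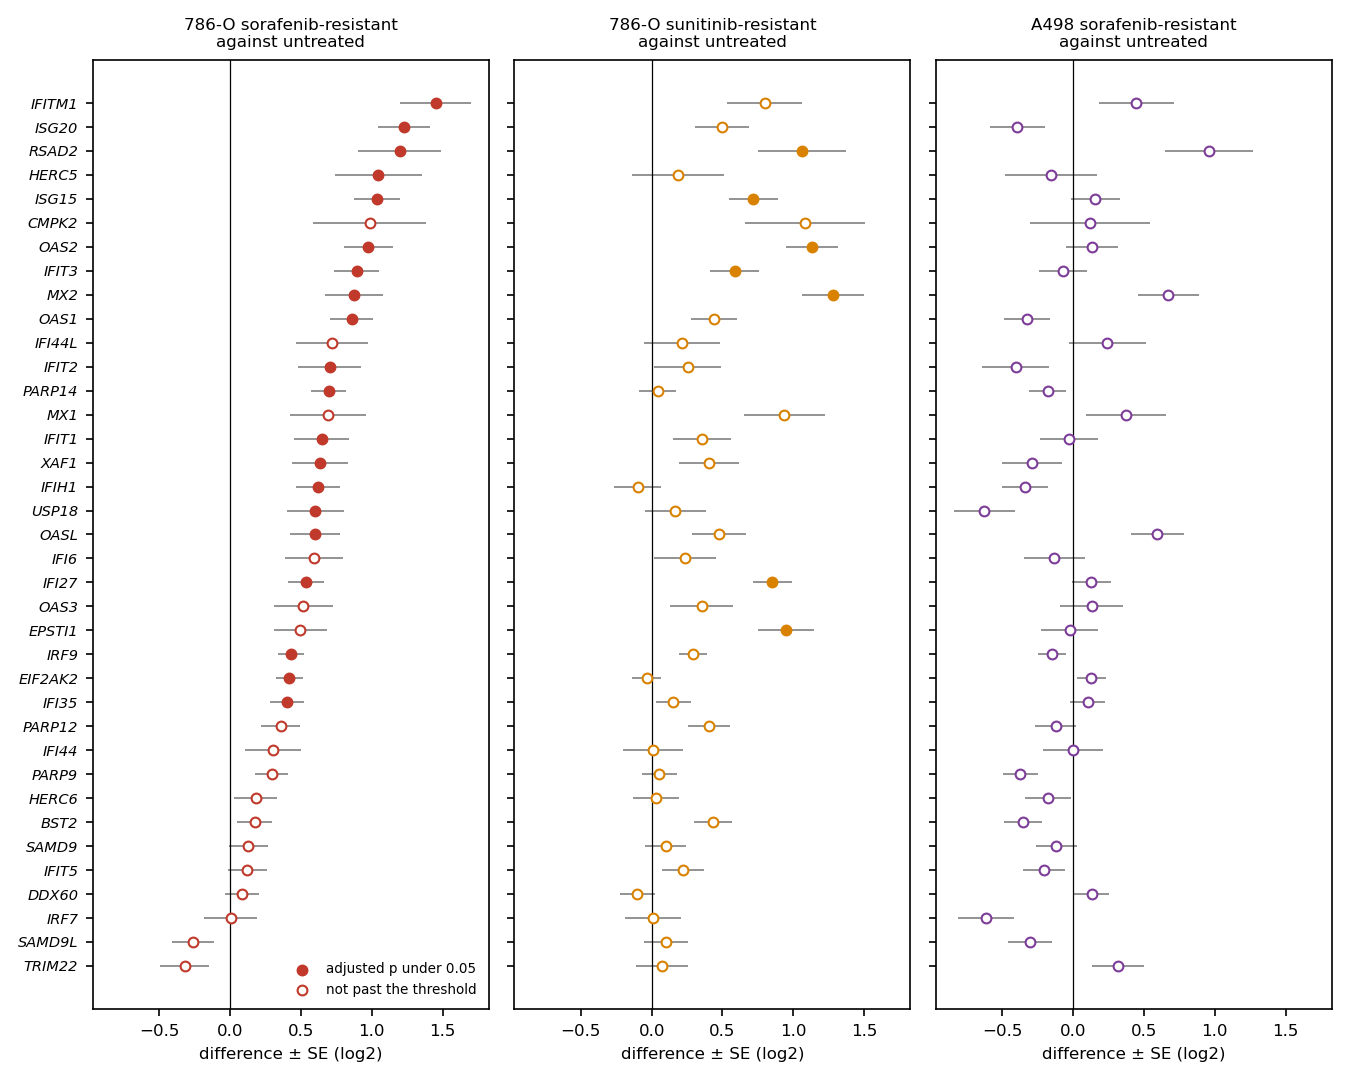
Points are the difference resistant minus untreated in log2(signal + 16) for each of the 37 genes, with bars of 1 SE from limma, in the 3 arms side by side and in the order of the 786-O sorafenib arm; filled points have an adjusted p under 0.05. Filled points number 20 in the first panel, 7 in the second and 0 in the third.

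In A498 tumours resistant to sorafenib no member rose or fell, where 2.93% of all genes rose and 3.40% fell, 6.34% together (limma, Benjamini-Hochberg adjusted). At an unadjusted p under 0.05 there were 8, and the share of all genes at that threshold was not counted. The difference was above 0 in 15 of 37 members against 54.2% of all genes, and the median was -0.07 against 0.03. Of those 8, MX2 was 0.67 ± 0.22 higher (adjusted p = 0.0651) and OASL 0.59 ± 0.19 (adjusted p = 0.0606). RSAD2 was also among the 8, but no A498 tumour of either group exceeded the limit in it, so no difference is read there; MX2 exceeded it in 3 resistant and in none of the untreated tumours. OASL signals were 153, 215, 153 and 187 untreated and 272, 249, 268, 297 and 279 resistant, so that the groups did not overlap. The other 5 of the 8 were lower: USP18 by -0.63 ± 0.22, IRF7 by -0.62 ± 0.20, PARP9 by -0.37 ± 0.12, BST2 by -0.35 ± 0.13 and IFIH1 by -0.34 ± 0.16. IRF7 was at 1476, 1404, 1291 and 1474 untreated and at 949, 1238, 814, 1005 and 661 resistant, below every untreated tumour (adjusted p = 0.0633).

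Groups of A498 that did not overlap numbered 1 higher (4.14% of all genes) and 4 lower (5.00%), the latter being PARP9, ISG20, IRF7 and USP18. The tumours stayed close to the untreated mean, with medians over the members of 0.03, -0.19, 0.11, -0.11 and -0.02. ISG15 read 719.6, 676, 711 and 655 untreated and 723, 699.8, 997, 667 and 804 resistant, a difference of 0.15 ± 0.17 with a 95% interval of -0.20 to 0.51. For IFI27 the interval was -0.15 to 0.41 and for IFIT3 -0.42 to 0.28. The tumour count here left shifts of 0.5 mostly uncalled, with 24% of simulated ones found, and 76% of shifts of 1.

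The response of the lines to the same drug was compared as the A498 change minus the 786-O change. In this contrast 10 members were lower and none higher, where 2.17% of all genes were lower and 3.02% higher (5.19% together). The difference was above 0 in 2 of 37 members (58.0% of all genes), with a median of -0.53 against 0.07. ISG20 differed most, by -1.62 ± 0.27 (adjusted p = 9.04e-04). Its A498 signals were 1094, 960.3, 1056 and 988 untreated and 636, 664, 899, 764 and 955 resistant, lower in every resistant tumour, where the 786-O signals above were higher in every resistant tumour.

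USP18 differed by -1.23 ± 0.30 (adjusted p = 0.0169), from 549.8, 517, 438 and 447 to 412, 274, 287, 430.1 and 199.7 in A498 and from 263, 369.6, 336, 318 and 305 to 568, 314, 384, 848 and 476 in 786-O. OAS1 differed by -1.18 ± 0.22 (adjusted p = 0.00284). It read 803, 940.0, 908 and 699.7 untreated and 669.7, 933, 739, 575 and 475 resistant in A498. In 786-O it read 676, 795, 658, 617 and 691 untreated and 1314, 970.2, 1217, 1754 and 1137 resistant, with no overlap. ISG15, with the signals given above, differed by -0.88 ± 0.24.

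Both IFIT genes of this group were higher on average in resistant 786-O and not in resistant A498. IFIT2 read 714, 613, 683, 652 and 942 untreated and 1212, 921, 1200.3, 1575 and 1037 resistant in 786-O, and 347, 356, 263 and 362 untreated and 446, 142, 151, 273 and 326 resistant in A498 (-1.11 ± 0.33). IFIT3 read 1711, 1938, 1809.7, 1842 and 2368 untreated and 3118, 3177, 3249, 6087 and 3019.6 resistant in 786-O, and 763, 742, 608 and 673 untreated and 599, 776, 655, 615 and 668 resistant in A498 (-0.96 ± 0.23). In IFIT3 the 786-O groups were apart and the A498 groups overlapped, while in IFIT2 both lines had overlapping groups.

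The sensor IFIH1 and the factor IRF9 differed as well. IFIH1 read 656, 791, 725, 571 and 787 untreated and 1048, 800.3, 1026, 1419 and 1227 resistant in 786-O, and 789, 885, 613 and 768 untreated and 708, 608, 581, 560.2 and 529 resistant in A498 (-0.96 ± 0.23). IRF9 read 1093, 1351, 1230.1, 1422 and 1337 untreated and 1984, 1408, 1894, 1855 and 1602 resistant in 786-O, and 1003, 1057, 1131 and 936 untreated and 939.9, 859, 884, 971 and 989 resistant in A498 (-0.58 ± 0.13). For IFIH1 all resistant 786-O tumours were above the untreated ones, and for IRF9 4 of 5 were. Of the ADP-ribosyltransferases, PARP14 read 1422, 1574, 1416, 1168 and 1411 untreated and 2136, 1807, 2128, 3201 and 2254 resistant in 786-O, and 964, 1159, 936 and 1005 untreated and 1023, 822, 879, 929 and 825 resistant in A498 (-0.87 ± 0.18). PARP9 read 1411, 1692, 1323, 1503 and 1829.6 untreated and 1803, 1536, 1891, 2279 and 2027 resistant in 786-O, and 1245, 1192, 1079 and 1233 untreated and 1001, 743, 926, 963 and 949 resistant in A498 (-0.67 ± 0.17). PARP14 was higher in every resistant 786-O tumour, and PARP9 lower in every resistant A498 tumour. For OASL the difference was 0.00, with an interval of -0.54 to 0.53, and for MX2 it was -0.20 ± 0.30. In both of these genes both lines had a change above 0. Titles of the 786-O tumours in this contrast begin with another number than those of A498, so a batch behind that number and the line cannot be told apart.

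**Figure D4:**
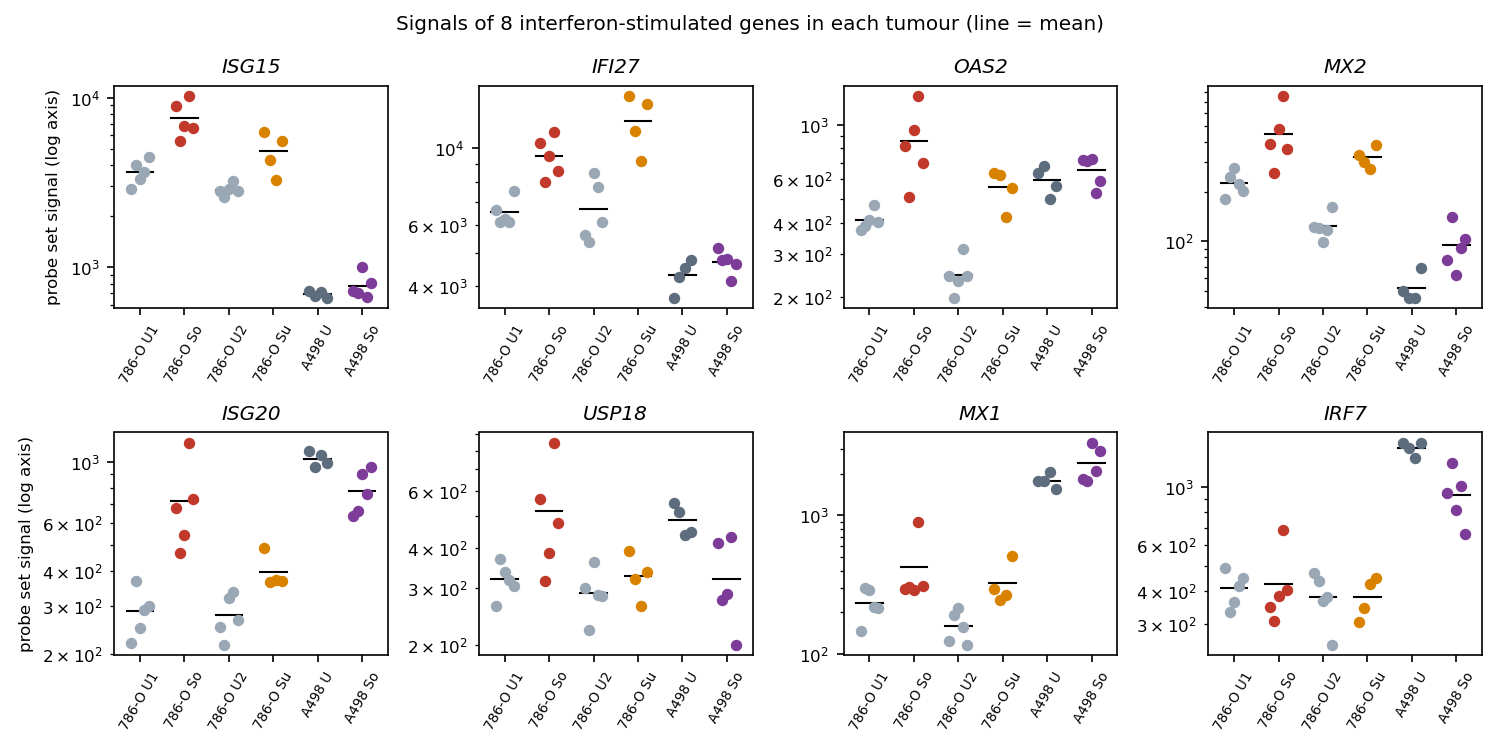
Probe set signals on a log axis for 8 members, a point per tumour and a line at the group mean. Groups from left to right are 786-O untreated of the sorafenib arm (786-O U1), 786-O sorafenib-resistant (786-O So), 786-O untreated of the sunitinib arm (786-O U2), 786-O sunitinib-resistant (786-O Su), A498 untreated (A498 U) and A498 sorafenib-resistant (A498 So). ISG15 is lowest in A498 and MX1 highest there, and ISG20 and USP18 lie higher in resistant than untreated 786-O on average and lower in resistant than untreated A498.

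Before treatment the lines already differed in this set. With the untreated sunitinib-arm tumours as the 786-O side, A498 had 9 members higher and 19 lower, where 27.3% of all genes were higher and 30.6% lower (58.0% together). The difference was above 0 in 13 of 37 (46.4% of all genes), with a median of -0.45 against -0.06. The groups did not overlap in 10 members with A498 above (23.1% of all genes) and 17 with A498 below (24.4%). MX1, a cytoplasmic GTPase against influenza and other RNA viruses, was at 1766, 1763, 2048 and 1562 in A498 and at 124, 191, 215, 157 and 117 in 786-O. Its 10.4-fold difference (3.37 ± 0.28, adjusted p = 2.15e-10) was the largest among the members at the pseudocount of 16; with a pseudocount of 1 that of CMPK2 was larger (3.71 against 3.50). CMPK2 was at 285, 260.3, 249 and 197 in A498 and 17.3, 6.79, 38.7, 10.7 and 34.4 in 786-O, where every untreated tumour was below the limit. It was tested only through A498, since 1 sorafenib-resistant and 1 sunitinib-resistant tumour of 786-O exceeded the limit and 4 arrays were required. Its values are therefore a description, though it counts among the 9 higher members and the 10 without overlap. The size of its difference (2.89 ± 0.42) moved between 1.87 and 3.71 over the alternatives. HERC5 was at 369, 406, 556 and 278 in A498 and 65.6, 99.9, 80.2, 23.5 and 86.3 in 786-O (2.31 ± 0.33, adjusted p = 1.13e-06). The other 6 higher members were EPSTI1 (2.02 ± 0.20), IRF7 (1.87 ± 0.20), ISG20 (1.84 ± 0.19), OAS2 (1.23 ± 0.18), IFI35 (0.80 ± 0.12) and USP18 (0.73 ± 0.22).

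Lower in A498 was TRIM22, a ubiquitin ligase that restricts several viruses, at 743, 826, 375 and 831 against 3332, 3053, 3621, 3301 and 3198 in 786-O (-2.29 ± 0.18, adjusted p = 8.71e-11). IFI6, a mitochondrial and endoplasmic reticulum protein, was at 653, 929, 572 and 844 in A498 and 2411, 2737, 3692, 3774 and 3922 in 786-O (-2.12 ± 0.22, adjusted p = 7.25e-09). ISG15 was at 719.6, 676, 711 and 655 in A498 against 2805, 2589, 2878, 3218 and 2816 in 786-O (-2.02 ± 0.17, adjusted p = 3.06e-10). All 4 IFIT genes were lower, IFIT1 by -1.82 ± 0.21, IFIT3 by -0.95 ± 0.17, IFIT2 by -0.93 ± 0.24 and IFIT5 by -0.65 ± 0.15. MX2, IFI44L, BST2, SAMD9, HERC6, DDX60, IFI44, SAMD9L, PARP12, IFI27, IRF9 and PARP14 were lower by between -1.03 and -0.44. OAS1, OAS3, OASL, RSAD2, IFITM1, IFIH1, XAF1, EIF2AK2 and PARP9 did not pass.

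The members thus did not shift together between the lines, and genes next to each other in RefSeq's order went different ways. MX1 was higher and its neighbour MX2 lower in A498 (-1.03 ± 0.22, adjusted p = 2.34e-04). No untreated A498 tumour exceeded the limit in MX2, which was tested through 786-O, so its difference here is a description. The size of that difference moved between -1.82 and -0.68 over the alternatives. HERC5 was higher and HERC6 lower (-0.77 ± 0.16, adjusted p = 2.13e-04). OAS2 was higher, while OAS3 (-0.43 ± 0.22) and OAS1 (0.36 ± 0.16) did not pass. IFIT2 with IFIT3, IFIT1 with IFIT5, IFI44L with IFI44 and SAMD9 with SAMD9L were lower in pairs. Across the members with the response element letters in the window, 4 of 21 were higher and 13 lower in A498. Of the 9 without them 2 were higher and 3 lower, where 27.3% of all genes were higher and 30.6% lower. In the 786-O sorafenib arm 10 of the 21 and 5 of the 9 rose, against 5.97% of all genes.

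**Figure D5:**
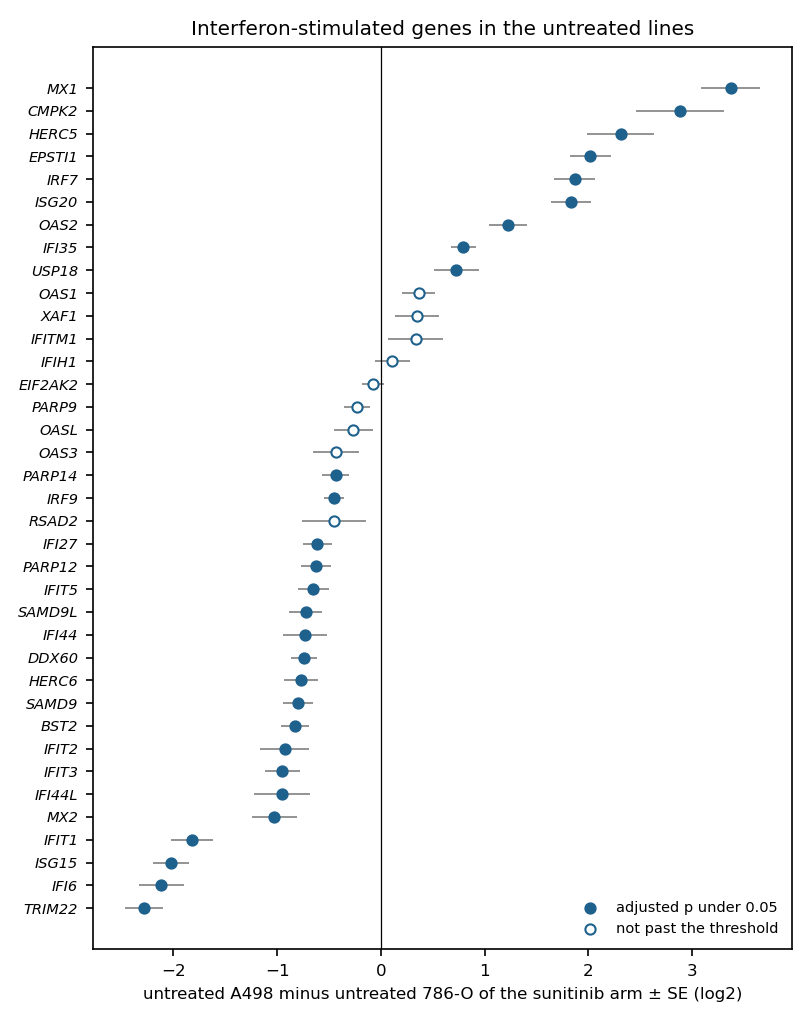
Differences of untreated A498 minus untreated 786-O (sunitinib arm) in log2(signal + 16) for the 37 genes, with bars of 1 SE from limma; filled points have an adjusted p under 0.05. MX1 at 3.37 and TRIM22 at -2.29 are the ends of the order.

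Sets of untreated 786-O tumours were compared with each other to show the background. Between the sorafenib arm and the sunitinib arm no member passed, where 0.210% of all genes were higher and 0.0652% lower in the former (limma, Benjamini-Hochberg adjusted). At an unadjusted p under 0.05, 6 members differed, all higher in the sorafenib arm: MX2, OAS2, OASL, IFIT3, OAS3 and ISG15. The share of all genes at that threshold was not counted. The difference was above 0 in 32 of 37 members (56.9% of all genes), with a median of 0.14 against 0.03. MX2 was 0.79 ± 0.20 higher (adjusted p = 0.0878) and OAS2 0.71 ± 0.17 (adjusted p = 0.0724), and both were without overlap, as was IFIT3 (3 members, against 1.83% of all genes). For OAS2 this gap of 0.71 between untreated tumours stands beside its rise of 0.98 with sorafenib resistance and 1.13 with sunitinib resistance. For MX2 the gap of 0.79 stands beside rises of 0.87 and 1.28. MX2 signals were 180 to 278 in untreated tumours of the sorafenib arm and 273 to 383 in sunitinib-resistant tumours, which overlap. Those of OAS2, 373 to 470 and 421 to 639, overlap as well.

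Genes around the set were read from lists named with it. Of 9 interferon genes with a probe set, 7 lay below the limit, among them IFNB1, which read 2.81 to 33.1 over all tumours, and IFNG, which read 2.97 to 67.3. IFNE and IFNL2 were tested and did not pass in any comparison. Of the 6 receptor chains none passed in either arm of 786-O (limma; 1 in each at an unadjusted p under 0.05), and in resistant A498 tumours IFNAR1 fell by 0.45 on the log2 scale (SE 0.13, adjusted p = 0.0432). Between the untreated lines IFNAR1 (0.93 ± 0.13), IFNGR1, IFNGR2 and IL10RB were higher in A498 and IFNLR1, the receptor of lambda interferons, lower by -3.24 ± 0.18. Of 14 other signalling genes SOCS3, an inhibitor of cytokine receptors, rose by 1.42 ± 0.27 in sorafenib-resistant 786-O, while JAK1 (-0.36 ± 0.10) and PTPN6 (-0.41 ± 0.12) fell. JAK1 fell in resistant A498 as well (-0.41 ± 0.10), and no gene of that list passed in the sunitinib arm, adjusted or not.

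Of 12 genes of nucleic acid sensing, TLR3, an endosomal receptor for double-stranded RNA, fell in all 3 arms, by -0.92 ± 0.17 in 786-O under sorafenib, -0.62 ± 0.18 under sunitinib and -0.72 ± 0.18 in A498. TLR3 was higher in untreated A498 than 786-O by 2.79 ± 0.18, with medians of 5511 against 844. IFI16, a DNA sensor, rose with sorafenib in 786-O (0.48 ± 0.09) and in A498 (0.38 ± 0.10), and RIGI fell in A498 (-0.42 ± 0.12). Of 22 further genes known to be induced by type I interferon, 9 rose and 1 fell in the 786-O sorafenib arm, with a median of 0.34 against -0.05 over all genes. LY6E rose by 1.11 ± 0.24, HELZ2 by 0.78 ± 0.25 and TRIM14 by 0.57 ± 0.12, SP100 and LGALS3BP rose less, and TRIM5 fell (-0.67 ± 0.18). In the sunitinib arm 2 of the 22 rose, LY6E (0.92 ± 0.25) and PLSCR1 (0.41 ± 0.12), and in A498 none passed (limma), with 4 at an unadjusted p under 0.05. Of 14 genes that respond more to interferon-gamma, GBP5 (0.90 ± 0.24) and WARS1 (0.52 ± 0.10) rose in the sorafenib arm and none passed in the sunitinib arm (2 at an unadjusted p under 0.05). In A498 WARS1 rose (0.55 ± 0.11) and GBP3 fell (-0.90 ± 0.13).

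Markers of other cells were read beside these results. Of 15 myeloid genes 8 were below the limit, among them CD14, CD163, TYROBP and PTPRC, and 7 were above it (CSF1R, MSR1, ITGAM, AIF1, FCER1G, LYZ and C1QB). Of 11 lymphocyte genes 8 were below, among them CD3D, CD3E, CD8A and MS4A1, and CD2, CD79A and NCAM1 above. Of 5 genes of plasmacytoid dendritic cells, strong producers of type I interferon, CLEC4C, LILRA4, IL3RA and GZMB were below. In the 786-O sorafenib arm the summed signal of the 15 myeloid genes was 959 to 1424 untreated and 770.1 to 999 resistant, with 2 of 7 tested lower (MSR1 and AIF1); CSF1R was 0.69 ± 0.30 higher without overlap and did not pass. The summed signal of the 12 fibroblast and pericyte genes fell from 8166 to 11437 untreated to between 3149.9 and 5305 resistant, with 6 of 10 tested lower. In that arm TIE1 of 4 tested endothelial genes was lower. The 11 lymphocyte genes summed to 1866 to 2692 untreated and 2711 to 4243 resistant, with NCAM1 of 3 tested higher, and the 5 plasmacytoid genes to 3979 to 5306 and 2682 to 4074, with TCF4 the one above the limit and not called. In the sunitinib arm the fibroblast and pericyte sum was 4445 to 8785 untreated and 3541 to 7729 resistant, with RGS5 lower, and in A498 it was 7443 to 16789 untreated and 11065 to 25081 resistant, with none called. Also in A498 the sum of the 11 lymphocyte genes was 691 to 875 untreated and 1343 to 2372 resistant, without overlap. Of these genes 8 were below the limit, and of the 3 tested NCAM1 alone was called higher (1.49 ± 0.19). The part of NCAM1 in the lymphocyte sums was not counted. The myeloid sum in A498 was 1139.8 to 1237 untreated and 1072 to 2670.2 resistant, with none called. In the contrast between the lines under sorafenib 4 of 10 fibroblast and pericyte genes were higher, as were AIF1, NCAM1 and TIE1. The part of these markers in the differences of the members was not tested.

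A second reading came from other probe sets. For 18 members 22 further probe sets were tested among 26924 in all, and 19 of the 22 had the sign of the chosen probe set in the 786-O sorafenib arm, 17 in the sunitinib arm, 10 in A498 and 17 between the untreated lines. In the sorafenib arm 8 of them were higher, among them those of ISG20 (2.01 ± 0.32), EPSTI1 (1.22 ± 0.29), IFIT3 (1.01 ± 0.17) and OAS1 (0.76 ± 0.15). Other sets of called members did not pass there. Among these were sets of IFIH1 (0.03 ± 0.17), EIF2AK2 (-0.01 ± 0.16), PARP14 (-0.08 ± 0.29) and OAS2 (0.19 ± 0.23), with mean signals of 78.0 to 161. Brighter ones were sets of EIF2AK2 (0.37 ± 0.18, mean signal 1185), OASL (0.60 ± 0.21, mean signal 244) and OAS2 (0.33 ± 0.15, mean signal 178). In the sunitinib arm 2 of the 22 were higher, for EPSTI1 (1.38 ± 0.31) and OAS2 (0.60 ± 0.16). With adjustment over all these probe sets, some chosen sets lost their call. They were USP18 in the sorafenib arm (limma, adjusted p = 0.0559), and IFIT3 (adjusted p = 0.0581) and RSAD2 in the sunitinib arm. In A498 a further probe set of SAMD9 was lower (-0.43 ± 0.11, adjusted p = 0.020). EPSTI1 and PARP9 thus have a probe set that rose under sorafenib beside the chosen set that missed the threshold. No further probe set passed in the direction opposite to a call of the chosen set.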

How the data were processed

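The values are probe set intensity values deposited by the authors for 28 one-colour Affymetrix HG-U133 Plus 2.0 arrays; they are linear and scaled to the same trimmed mean (500.1), as the values themselves show. RMA and MAS5 are named in the submitters' processing notes, without versions or order. Signals were used as log2(signal + 16). A gene was represented by the probe set with 1 symbol in the platform annotation and the highest mean over all arrays. Of 19775 genes, 13808 were tested: those that exceeded a signal of 89.4 (log2 6.72), the overall median, on 4 or more arrays. A linear model with a coefficient for each of 6 groups was fitted with limma 3.58.1 in R 4.3.3 (lmFit, contrasts.fit and eBayes), with no covariate, and p-values were adjusted by Benjamini-Hochberg over all genes tested; it was tested on simulated data first. Plots used Python 3.11.15 and matplotlib 3.10.9. Promoter windows and gene order come from RefSeq.

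The members and gene lists were chosen with earlier results of these data known. Any member could be named. Shares of all genes at an unadjusted p under 0.05 were counted for no comparison. Full values were given for up to 6 called members without overlap and of largest difference per comparison, and for those whose difference between arms or lines was called; of the other lists up to 6 called genes were named. USP18, OAS2, MX2 and TLR3 carry further values chosen after seeing them. Alternatives tried were another pseudocount, filter, scaling, choice of probe sets, array weights, variance prior, the arrays of the comparison alone, and leaving out tumours.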

Additional observations from a re-analysis of the deposited data

Results flagged for a closer look

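Sets of 4 or 5 tumours were searched for a tumour that stood apart from the others of its group, by Dixon's test at 95% on the log2 scale. The 228 sets were the 37 tested members and the median over them, in 6 groups. Such a tumour was found in 13 sets, where chance gives about 5%. In the untreated 786-O tumours of the sorafenib arm this was replicate 1, the lowest for OASL (246), RSAD2 (11.2), XAF1 (665) and HERC5 (12.0). In the sorafenib-resistant 786-O tumours it was replicate 4, the highest for IFIT3 (6087), IFI6 (7019) and MX1 (902). IFIH1 stood apart in untreated replicate 4 of the sunitinib arm (919.9). ISG20 (484) and EPSTI1 (958) did so in replicate 1 of the sunitinib-resistant tumours. In A498, untreated replicate 3 was lowest for IFIT2 (263) and TRIM22 (375), and resistant replicate 2 for PARP9 (743). The tumours that recur are the ones that also stand at the ends of their groups in the median over the members.

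The change under sorafenib differed between A498 and 786-O beyond the adjusted threshold (limma) for 10 members. The A498 change minus the 786-O change was -1.62 for ISG20, -1.23 for USP18, -1.18 for OAS1, -1.11 for IFIT2, -0.96 for IFIT3, -0.96 for IFIH1, -0.88 for ISG15, -0.87 for PARP14, -0.67 for PARP9 and -0.58 for IRF9.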

How the results depend on the processing

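No paired analysis was possible because the labels number no tumours across groups; numbers here were given in accession order. The number of members that rose in the 786-O sorafenib arm, 20, was 13 to 25 when 1 tumour was left out, 27 with median centring and 13 without the 2 arrays of highest ACTB difference; it was 11 without untreated replicate 1 and resistant replicate 4, added after seeing the data. In 9 members the call held in every alternative in which they were tested (IFIT3, IFI27, IFITM1, ISG15, ISG20, MX2, OAS1, OAS2 and IRF9). Without probe sets of shared sequence, IFITM1 and ISG15 were not tested, and MX2 was tested in 22 of 23 alternatives. In the sunitinib arm 7 became 4 to 7 with a tumour left out, 9 with median centring and 3 with only the arrays of the comparison. IFI27, MX2 and OAS2 held in every alternative in which they were tested (for MX2 20 of 21). In A498 the count of higher members, 0, was 0 to 1 with a tumour left out (1 without untreated replicate 4 or resistant replicate 3), 1 with pseudocount 1, with array weights or with only its own arrays, and 2 without the 2 arrays. The count of lower members, 0, was 0 to 1 with a tumour left out (1 without resistant replicate 1, 2 or 3), 1 with pseudocount 64 or a trended robust variance, 2 with the filter at the 75th percentile or without the 2 arrays, and 3 with median centring or array weights. The difference between the 786-O arms gave 1 higher member with the mean of probe sets, and 0 to 1 with a tumour left out; the untreated 786-O arms gave 1 with array weights. Of the 28 members called between the untreated lines 26 held in every alternative in which they were tested. PARP14 reversed with the mean of probe sets (0.011 against -0.44, adjusted p = 0.966), and the cause was not tested. Its adjusted p was 0.002 to 0.966 over all alternatives. Of the 10 called between the lines under sorafenib, 5 held (IFIT3, ISG20, OAS1, USP18 and IRF9), and the count was 8 to 12 with a tumour left out. Median centring moved the median of all genes in that contrast from 0.07 to -0.12, with 1 member above 0 in place of 2. It also moved that median from -0.05 to 0.04 in the 786-O sorafenib arm and from -0.01 to 0.05 in the sunitinib arm. In A498 the move was from 0.03 to -0.07. The shares of all genes called under median centring, beside the counts of 27, 9 and 3 above, were not counted.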
